A study of Homo sapiens with 10 samples.

Results

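The EGFR/ERBB receptors and their ligands were described in A549 cells and in A549/DDP cells, a line that resists cisplatin (DDP). They comprised 10 genes of the 58037 in the tables, chosen as a list of names and found by Ensembl identifier: the receptors EGFR, ERBB2, ERBB3 and ERBB4, and the ligands AREG, EREG, HBEGF, TGFA, NRG1 and BTC. A549 is a human lung adenocarcinoma line, and each of the lines had 2 input RNA libraries and 2 m6A-seq libraries. In m6A-seq an antibody against N6-methyladenosine enriches fragments of poly(A) RNA, and a peak is a stretch where they pile up beyond the input. A second pair of A549 inputs has labels that name no experiment, and its values are given apart. The paper also describes a RIP-seq in A549, which sequences RNA bound by the protein YTHDF1, with inputs of its own. Whether the second pair belongs to it is not stated. Both lines were grown in the same serum-containing medium, for at most 10 passages, with no treatment named in the labels, and the labels do not say whether A549/DDP was kept in cisplatin. The labels of the A549/DDP inputs give the cell line as A549 and the cell type as DDP resistant. The paper states that A549 was purchased and that A549/DDP was a gift from another institution. The part of these separate sources in the results was not tested. Each line is a single line, so a difference between them is a difference between these lines. Nothing in the labels says that replicates were separate cultures. The p-values therefore measure only the spread between these libraries.

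The ERBB receptors are tyrosine kinases of the cell surface that pair with each other when a ligand binds, and they signal through ERK and through PI3K. EGFR is bound by AREG, TGFA, EREG, HBEGF and BTC. ERBB3 and ERBB4 are bound by NRG1, ERBB2 has no known ligand, and ERBB3 has little kinase activity of its own and signals through its partner. The ligands are made as membrane precursors and released by ADAM proteases, and EGFR signalling is a common driver of lung adenocarcinoma.

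Input libraries of A549/DDP and of the first A549 pair held from 29225463 to 35286491 expected counts. Expected counts are the read numbers that the program RSEM assigns to a gene. Levels per length are given as TPM, the share of a transcript among all transcripts. The epithelial markers differed in level, with KRT7, KRT8 and KRT18 from 1255 to 9891 TPM, CDH1 from 28.9 to 226 TPM and EPCAM from 2.45 to 6.95 TPM. KRT19 had 33.3 and 63.95 TPM in A549 and 9.24 and 0 TPM in A549/DDP. The 6 epithelial markers summed to 8621 and 11389 TPM in A549 and to 16047 and 15991 TPM in A549/DDP. Of these, CDH1, KRT8 and KRT18 were higher and KRT7 lower in A549/DDP (adjusted p under 0.05 in edgeR's test), and their part in the results below was not tested. The alveolar markers SFTPA1, SFTPA2 and SFTPC had 0 counts in these 4 libraries and the 7 markers of that list summed to 13.1 to 38.9 TPM. Most of this was ABCA3, at 11.6 and 18.2 TPM in A549 and 34.4 and 22.0 TPM in A549/DDP. ABCA3 was higher in A549/DDP (log2 fold change 1.04, adjusted p = 0.0188 in edgeR's test). The lists for fibroblasts, endothelium and blood cells summed to at most 22.0, 0.40 and 4.86 TPM. The defining blood cell marker PTPRC was at most 0.06 TPM, PECAM1 at most 0.21 TPM and COL1A1 from 1.85 to 14.7 TPM.

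Of the 10 genes, 9 had enough counts to be tested, and 5 of them passed edgeR's quasi-likelihood test (adjusted p-value under 0.05), 1 higher and 4 lower in A549/DDP. ERBB3 rose, and EGFR, AREG, EREG and NRG1 fell. Over all 16406 genes tested, 14.9% passed, 6.85% higher and 8.0% lower. These genes and the lists below were chosen with earlier results of these data known. A share above that of all genes is therefore no test of a list. The median log2 fold change was -2.04 over the 9 genes, with a median of 0.69 over the 3 receptors and of -2.09 over the 6 ligands, and it was -0.00 over all genes tested. These are bulk libraries, so fewer cells that express a gene and less RNA per cell cannot be told apart. The common biological coefficient of variation was 0.656. Levels between genes are given in TPM, and comparisons between the lines in CPM, which are counts scaled to library size with TMM factors.

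The order of the levels differed between the lines. In A549, NRG1 had the highest TPM at 514 ± 7.09 (SD, n = 2), followed by EGFR at 300 ± 35.5, AREG at 185 ± 4.08, EREG at 123 ± 22.5, ERBB2 at 33.3 ± 8.68, HBEGF at 18.4 ± 4.52, TGFA at 10.9 ± 1.65, ERBB3 at 4.16 ± 0.98 and BTC at 1.85 ± 0.87 (SD, n = 2 each). The libraries of neighbours in this order did not overlap. In A549/DDP the TPM of NRG1 was again the highest at 83.7 ± 11.9, and ERBB3 at 53.6 ± 15.9, EGFR at 53.3 ± 4.14 and ERBB2 at 52.4 ± 9.19 overlapped (SD, n = 2 each). AREG lay below them at 28.3 ± 4.29 TPM. EREG at 5.80 ± 4.94, TGFA at 4.02 ± 2.89 and HBEGF at 3.21 ± 2.42 TPM overlapped, and BTC was lowest of the detected genes at 0.47 ± 0.64 TPM.

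**Figure D1:**
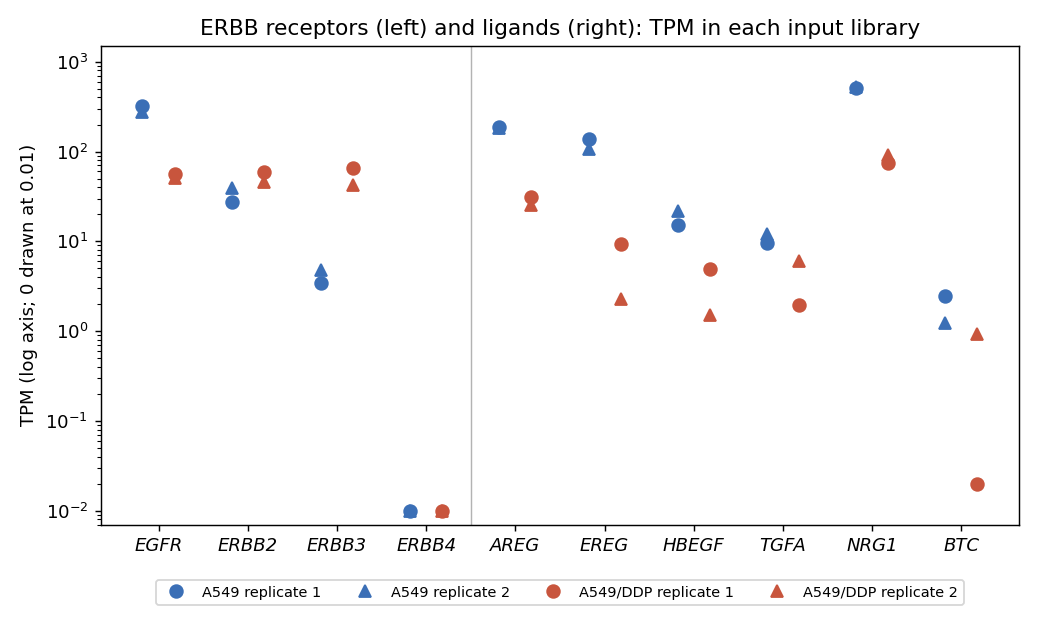
TPM of the 10 genes (log axis, with 0 drawn at 0.01) in each input library of the first A549 pair (blue) and A549/DDP (red), with circles for replicate 1 and triangles for replicate 2. The A549/DDP libraries lie below the A549 libraries for EGFR and for all 6 ligands, and above them for ERBB2 and ERBB3. Of these, ERBB2, HBEGF, TGFA and BTC did not pass edgeR's test, and how many of all genes lack overlap was not counted.

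EGFR, the receptor of most of these ligands, was lower in A549/DDP. Its gene spans positions 55019017 to 55211628 of chromosome 7 in the RefSeq annotation of GRCh38.p14. EGFR had a CPM of 1733 and 1307 in the A549 libraries and of 250 and 267 in the A549/DDP libraries. Both A549/DDP libraries lay far below both A549 libraries. The log2 fold change was -2.56 (standard error, SE, 0.19, adjusted p = 0.00237 in edgeR's test), which is 5.88-fold. With the second A549 pair added EGFR did not pass (log2 fold change -2.16, adjusted p = 0.0589), and against the second pair alone it fell by 1.30 on the log2 scale (adjusted p = 0.000404), in a fit where the median of all genes was 0.80. An antisense gene, EGFR-AS1, lies within EGFR. The paper describes a preparation that keeps the strand for its m6A-seq and input libraries. The sources used here do not say whether the counting used strand.

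ERBB3 (chromosome 12, 56080108 to 56103505), the partner receptor that binds NRG1, moved the other way. It had a CPM of 3.04 and 7.93 in A549 and of 114 and 96.8 in A549/DDP. The libraries did not overlap, and the difference was the largest among the receptors in either direction. The log2 fold change of 4.26 (SE 0.49, adjusted p = 0.00573 in edgeR's test) is 19.2-fold. ERBB3 passed under all 14 alternatives run, with log2 fold changes from 3.31 to 5.10, the latter without A549 replicate 2. In the alternatives that used the second A549 pair, that pair had 1 and 0 counts of ERBB3.

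ERBB2 (chromosome 17, 39688094 to 39728658), the receptor without a ligand that pairs with ERBB3, had a CPM of 48.2 and 76.7 in A549 and of 114 and 87.0 in A549/DDP. The A549/DDP libraries were the higher ones, but the log2 fold change of 0.69 (SE 0.28, adjusted p = 0.155 in edgeR's test) did not pass. Without A549 replicate 1 it was 0.38, and without A549 replicate 2 it was 1.05. Against the second A549 pair it was 2.27 and passed (adjusted p = 0.0160 in edgeR's test, with a median of all genes of 0.80). That pair had only 0 and 5 counts of ERBB2. ERBB4 (chromosome 2, 211375717 to 212538802), the second receptor of NRG1, had 0 counts in all 6 input libraries. A count of 0 allows up to 3 counts, or 0.085 to 0.103 CPM in the 4 deep libraries, for counting error only.

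These shifts changed the makeup of the receptor RNA. EGFR held 91.4% and 86.1% of the summed TPM of the 4 receptors in the A549 libraries, and 31.2% and 36.3% in A549/DDP. ERBB3 held 0.98% and 1.52% in A549 and 36.1% and 30.6% in A549/DDP. ERBB2 held 7.64% and 12.4% in A549 and 32.7% and 33.1% in A549/DDP. For each ERBB3 transcript, as TPM, A549 had 93.6 and 56.6 EGFR transcripts, and A549/DDP had 0.87 and 1.19. Receptor RNA was mostly EGFR in A549, while EGFR, ERBB2 and ERBB3 each held 30.6% to 36.3% in A549/DDP. No test was made of these shares, which follow from the same values as the fold changes.

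**Figure D2:**
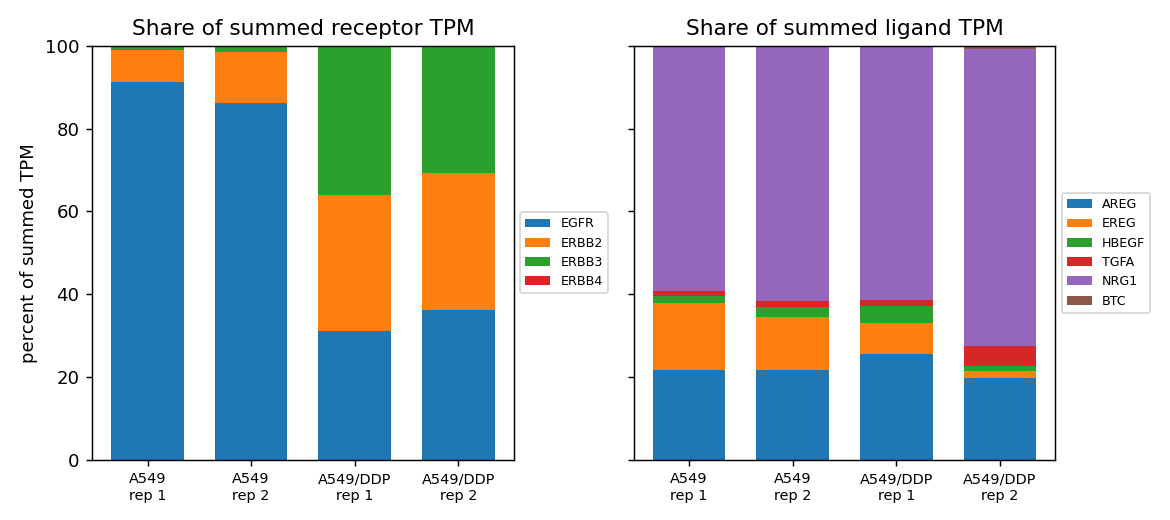
Share of each gene in the summed TPM of the 4 receptors (left) and of the 6 ligands (right), in percent, for each input library of the first A549 pair and of A549/DDP. EGFR takes 86.1% or more of the receptor bar in A549 and 36.3% or less in A549/DDP, while NRG1 is the largest part of the ligand bar in these 4 libraries.

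The ligands that passed the test all fell. EREG, which encodes epiregulin, had a CPM of 407 and 289 in A549 and of 22.2 and 6.65 in A549/DDP. The A549/DDP replicates were low but differed from each other by more than the A549 replicates did as a ratio. The log2 fold change was -4.60 (SE 0.60, adjusted p = 0.00802 in edgeR's test), or 24.2-fold, and it was -5.73 without A549/DDP replicate 1 and -3.98 without A549/DDP replicate 2. AREG, which encodes amphiregulin, had a CPM of 146 and 123 in A549 and of 20.2 and 18.03 in A549/DDP. This was a 7.03-fold fall (log2 fold change -2.81, SE 0.21, adjusted p = 0.00237). Against the second A549 pair AREG was at -4.98 (adjusted p = 8.745e-10), with a median of all genes of 0.80, and with both pairs at -4.39 (adjusted p = 0.0343). EREG and AREG passed under all 14 alternatives. They lie near each other on chromosome 4, EREG from 74365145 to 74388749 and AREG from 74445136 to 74455005.

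NRG1, which encodes neuregulin 1, had a CPM of 524 and 515 in A549 and of 110 and 142 in A549/DDP. Its log2 fold change was -2.04 (SE 0.19, adjusted p = 0.00355 in edgeR's test), or 4.12-fold. With all 4 A549 inputs in the fit NRG1 did not pass (log2 fold change -1.68, adjusted p = 0.0727), and against the second pair alone it fell by 0.84 on the log2 scale (adjusted p = 0.0296), beside the same median of 0.80. Although lower, NRG1 still made up 61.3% and 71.9% of the summed ligand TPM in A549/DDP, beside 59.0% and 61.6% in A549. The ligand TPM summed over 6 genes was 2.43 and 2.64 times the receptor TPM in A549 and 0.68 and 0.92 times in A549/DDP.

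The other 3 ligands did not pass. HBEGF, which encodes heparin-binding EGF-like growth factor, had a CPM of 13.0 and 16.1 in A549 and of 4.89 and 1.72 in A549/DDP, a log2 fold change of -2.14 (SE 0.68, adjusted p = 0.0879 in edgeR's test). TGFA, which encodes transforming growth factor alpha, had a CPM of 28.2 and 30.5 in A549 and of 5.36 and 12.1 in A549/DDP, a log2 fold change of -1.75 (SE 0.47, adjusted p = 0.0580). For both genes the libraries of the lines did not overlap. HBEGF passed under 5 of 14 alternatives and TGFA under 7 of 14. Without A549/DDP replicate 1 HBEGF had an adjusted p of 0.0149, and TGFA had 0.0107 without A549/DDP replicate 2, 0.0156 without A549 replicate 1 and 0.0360 without A549 replicate 2. BTC, which encodes betacellulin, was low, with a CPM of 1.85 and 2.00 in A549 and of 0.034 and 1.60 in A549/DDP (adjusted p = 0.731 in edgeR's test). A549/DDP replicate 1 had 1 count of BTC and A549/DDP replicate 2 had 56. Without A549/DDP replicate 2 the log2 fold change of BTC was -5.69, and without A549/DDP replicate 1 it was -0.28.

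**Figure D3:**
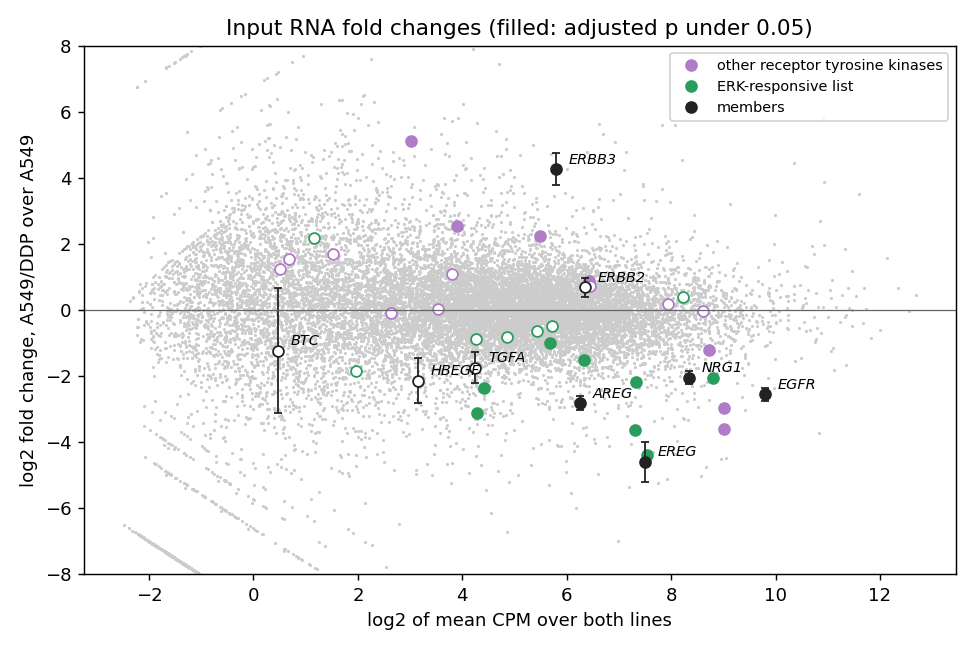
Log2 fold change of input RNA, A549/DDP over A549, against the log2 of the mean CPM over both lines, for all 16406 genes tested (grey) and for 3 lists, with filled points for an adjusted p under 0.05 and bars of 1 standard error for the ERBB receptors and ligands. ERBB3 stands at 4.26 and EREG at -4.60, and 8 filled points of the ERK-responsive list lie below 0.

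Sequence was read for the promoters of the genes that passed, because EGFR, AREG and EREG fell together. RefSeq promoter sequences of GRCh38.p14 were found for 8 of the 10 genes, with no entry for ERBB3 and NRG1. Shown are the 250 bases before the annotated gene start of EREG (chr4:74364895-74365144, plus strand), AREG (chr4:74444886-74445135, plus strand) and EGFR (chr7:55018767-55019016, plus strand), each 5′ to 3′, with capitals for any match to the TATA box TATAAA, the cAMP response element TGACGTCA, the AP-1 site TGANTCA or the GC box GGGCGG on either strand.
EREG: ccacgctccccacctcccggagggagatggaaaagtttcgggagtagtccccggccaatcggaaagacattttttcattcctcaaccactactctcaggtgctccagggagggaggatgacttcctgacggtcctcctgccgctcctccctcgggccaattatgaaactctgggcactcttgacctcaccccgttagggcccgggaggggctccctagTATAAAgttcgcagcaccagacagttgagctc
AREG: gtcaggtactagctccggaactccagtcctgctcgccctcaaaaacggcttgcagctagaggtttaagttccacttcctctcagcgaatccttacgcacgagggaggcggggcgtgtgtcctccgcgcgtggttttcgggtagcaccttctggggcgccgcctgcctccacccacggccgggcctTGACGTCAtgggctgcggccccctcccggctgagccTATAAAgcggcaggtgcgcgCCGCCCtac
EGFR: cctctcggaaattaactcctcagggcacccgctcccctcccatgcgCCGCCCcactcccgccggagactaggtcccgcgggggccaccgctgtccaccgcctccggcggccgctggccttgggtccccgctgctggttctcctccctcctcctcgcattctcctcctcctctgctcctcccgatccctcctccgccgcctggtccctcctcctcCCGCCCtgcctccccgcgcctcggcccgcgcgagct
EREG and AREG both held a TATA box, with its first base 32 and 29 bases before the start, which 10.7% of all 35116 promoter windows of this length held at any place. AREG also held a cAMP response element, found in 1.65% of all windows, and a GC box, found in 42.6%. The printed EGFR window held 2 GC boxes and no match to the other motifs, with a GC content of 73.6% against 58.0% for EREG and 65.2% for AREG. A second RefSeq entry of EGFR, at a start within the gene (window from 55109589, GC content 38.8%), held 2 TATA boxes and 2 AP-1 sites, so the motifs depend on the start used. No AP-1 match lay in the 3 printed windows, beside 6.57% of all windows with one. These are matches of letters, with no measure of binding.

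The mean transcript length that RSEM assigned to a gene is weighted by its isoforms, so it shifts when other isoforms take the reads. NRG1, a gene with many isoforms, had a mean transcript length of 1598 and 1763 bases in A549 and of 2371 and 2521 bases in A549/DDP. For ERBB3 it was 1376 and 2822 bases in A549 and 2826 and 3667 bases in A549/DDP, and for HBEGF it was 1350 and 1356 bases in A549 and 1649 and 1913 bases in A549/DDP. In these 3 of the 9 genes tested both A549/DDP libraries were longer than both A549 libraries, as in 15.5% of all genes tested. Such a shift lowers the TPM of a gene relative to its CPM, and NRG1 fell by 2.61 on the log2(TPM + 1) scale in limma.

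The other ErbB ligands, fixed as a list of 5 genes, were low. EPGN and NRG3 had 0 counts in all 6 input libraries, and EGF had 63 counts in A549/DDP replicate 1 and 0 in the others. NRG2 had 39 and 233 counts in A549 and 43 and 186 in A549/DDP, with a log2 fold change of -0.19 (adjusted p = 0.944 in edgeR's test). NRG4 had 63 and 0 counts in A549 and 62 and 450 in A549/DDP (adjusted p = 0.379), and it passed without A549 replicate 1, when the A549 library left had 0 counts.

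Ligand release was covered by 7 genes, of which 1 rose and 3 fell, or 4 of 7 called beside 14.9% of all genes tested, with a median log2 fold change of -0.08. ADAM17, the main protease that releases AREG, TGFA and HBEGF, had a CPM of 134 and 137 in A549 and of 62.8 and 59.5 in A549/DDP, a log2 fold change of -1.15 (SE 0.17, adjusted p = 0.0119 in edgeR's test). ADAM9 fell by 1.06 (adjusted p = 0.0237) and ADAM10, another ligand sheddase, by 0.74 on the log2 scale (adjusted p = 0.0435). ADAM12, a protease that can release HBEGF, rose from a CPM of 1.55 and 2.91 to 32.7 and 44.2, a log2 fold change of 4.11 (SE 0.47, adjusted p = 0.00577). Without A549/DDP replicate 1 the list had 2 genes that passed, ADAM12 and ADAM17, and without A549/DDP replicate 2 it had 1, ADAM12. It had 2 in limma, and 1 with the second A549 pair or with both pairs.

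Among 13 adaptors and kinases that carry the signal from the receptors, 2 rose, none fell and 11 did not pass, a share near the 14.9% of all genes tested. SRC, a kinase that works with EGFR, had a CPM of 172 and 277 in A549 and of 842 and 846 in A549/DDP, a log2 fold change of 1.91 (SE 0.25, adjusted p = 0.00819 in edgeR's test). PIK3R2, a regulatory subunit of PI3K, rose by 2.03 on the log2 scale (SE 0.24, adjusted p = 0.00592). The adaptor GRB2 had a log2 fold change of -0.33 (adjusted p = 0.213). Without A549 replicate 1 the list had 4 genes that passed and without A549 replicate 2 it had 5, and over the other alternatives it had from 1 to 7, the 7 against the second A549 pair. In both of these left-out fits 1 of the genes was lower.

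Of 17 genes that restrain the receptors or move them through the cell, 16 were tested, 7 fell and none rose, beside 8.0% of all genes tested that fell. The largest falls were those of SH3KBP1, an adaptor of the ubiquitin ligase CBL in receptor uptake (log2 fold change -1.42, adjusted p = 0.0241 in edgeR's test), PTPN12, a tyrosine phosphatase (-1.31, adjusted p = 0.00819), and SOCS4, which binds EGFR and lowers its amount (-1.18, adjusted p = 0.0474). The median log2 fold change of the list was -0.56. Of the list, 3 genes passed without A549/DDP replicate 1 and 1, PTPN12, without A549/DDP replicate 2, 3 passed in limma, 3 against the second A549 pair with 1 of them higher, and with both pairs of A549 inputs none of the list passed.

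Of 15 transcripts that respond to ERK, a kinase downstream of these receptors, 8 fell and none rose. Of all genes tested, 8.0% fell. The median log2 fold change of the list was -1.51, and the list was chosen with earlier results of these data known. With both pairs of A549 inputs 4 of the list passed and in limma 6, and 7 to 9 passed under the other alternatives, 1 of them as higher without A549 replicate 2 and against the second A549 pair. FOSL1, which encodes the AP-1 subunit FRA1, had a CPM of 535 and 176 in A549 and of 21.6 and 12.6 in A549/DDP, a log2 fold change of -4.38 (SE 0.60, adjusted p = 0.00921 in edgeR's test). PHLDA1 fell from a CPM of 358 and 225 to 26.8 and 20.3 (log2 fold change -3.63, adjusted p = 0.00295). DUSP6, the phosphatase that switches off ERK, fell from 36.0 and 34.1 to 1.59 and 6.54 CPM (log2 fold change -3.10, adjusted p = 0.0332). DUSP4, another ERK phosphatase, did not pass, with a log2 fold change of 0.39 (adjusted p = 0.273).

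Of 20 other receptor tyrosine kinases, 16 were tested, and 4 rose and 3 fell, or 7 of 16 called beside 14.9% of all genes tested. In limma on log2(TPM + 0.1) 4 passed, and 5 to 8 under the other alternatives. AXL fell from a CPM of 1152 and 749 to 80.1 and 75.9 (log2 fold change -3.61, adjusted p = 0.00231 in edgeR's test), EPHA2 fell by 2.96 (adjusted p = 0.00461) and MET, the receptor of hepatocyte growth factor, by 1.22 on the log2 scale (adjusted p = 0.0117). FGFR3 rose from a CPM of 0.15 and 0.73 to 16.2 and 15.3 (log2 fold change 5.14, adjusted p = 0.0185), INSR, the insulin receptor, rose by 2.54 (adjusted p = 0.0131) and FGFR4 by 2.25 (adjusted p = 0.0104). IGF1R, with a CPM of 395 and 390 as the means of the lines, had a log2 fold change of -0.02 (SE 0.16, adjusted p = 0.960). The median log2 fold change was 0.81.

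The m6A-seq lists are described by called peaks, because they hold no read counts. A549/DDP replicate 1 stood apart in its peaks on these genes. Its list held 27244 peaks, close to the 26320 of A549 replicate 1. The lists of A549/DDP replicate 2 and A549 replicate 2 held 10661 and 14576. It held 41 of the peaks on these genes, against 9 in A549/DDP replicate 2, 9 in A549 replicate 1 and 4 in A549 replicate 2. This was 0.15% of its list, against 0.0844%, 0.0342% and 0.0274%. Values that rest on it are given with and without it. With 2 libraries per line the smallest exact permutation p is 0.333, so no test was made.

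Merged where they shared at least 1 base, the peaks formed 45 regions in 8 of the genes, and ERBB4 and BTC had none. Of these regions 32 were called in A549/DDP replicate 1 alone. A further 4 were shared by the A549/DDP libraries and absent from A549, 2 were shared by the A549 libraries and absent from A549/DDP, and 0 were called in all 4. Without A549/DDP replicate 1 there were 14 regions in all. Of the 9 genes tested for RNA, EREG and TGFA had a peak in both A549 libraries, as did 27.1% of all genes tested, and EGFR and AREG had a peak in both A549/DDP libraries, as did 19.5%. ERBB2 and ERBB3 had peaks in A549/DDP replicate 1 and in no other library, a pattern of 6.64% of all genes tested.

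**Figure D4:**
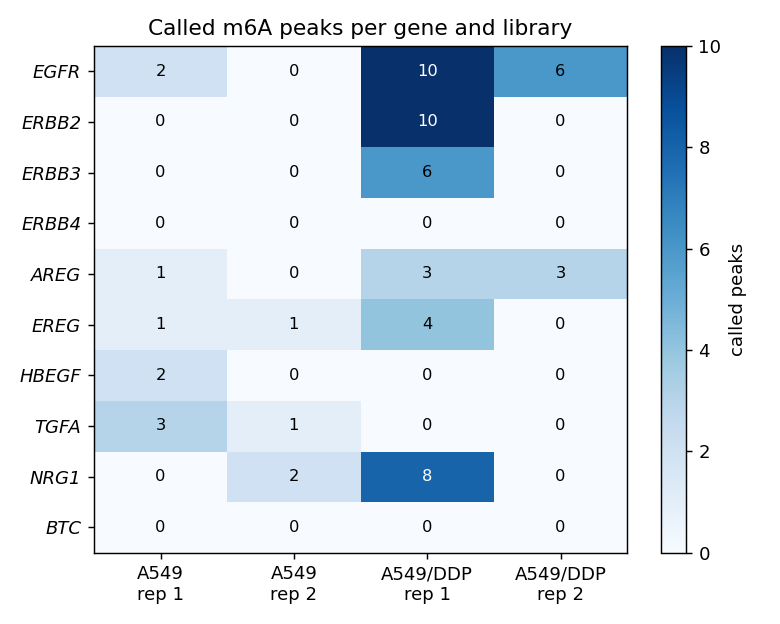
Number of called m6A peaks on each of the 10 genes in each m6A-seq library (colour and digits). A549/DDP replicate 1 holds 10 peaks on EGFR, 10 on ERBB2, 6 on ERBB3 and 8 on NRG1, and A549/DDP replicate 2 holds peaks on EGFR and AREG alone.

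EGFR had 2 called peaks in A549 replicate 1, 0 in A549 replicate 2, and 10 and 6 in the A549/DDP libraries, while its RNA was 5.88-fold lower there. A pair of adjoining regions near the 3′ end of the gene, on the plus strand at positions 55205398 to 55205896 and 55205946 to 55206843, was called in A549 replicate 1 and both A549/DDP libraries. The p-value the lists give was 0.00039 there in A549 replicate 1, 4.2e-05 and 0.00023 in the A549/DDP libraries. A further pair, at 55208289 to 55208937 and 55210980 to 55211429, was called in both A549/DDP libraries and in neither A549 library. The latter ends 199 bases before the gene end. The remaining 6 EGFR regions, upstream of these, were called in A549/DDP replicate 1 alone, with p-values from 0.0016 to 0.021. None of the EGFR peaks had a p-value at or below 1e-05.

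AREG had 1 peak in A549 replicate 1, 0 in A549 replicate 2, and 3 in each A549/DDP library. The region at the 5′ end (74445184 to 74446660, 350 bases in exon blocks, starting 48 bases after the gene start) was called in A549 replicate 1 and both A549/DDP libraries, with p-values from 3e-07 to 4.8e-07. It begins 48 bases downstream of the printed promoter window, past the TATA box shown above. Regions at 74449115 to 74450446 and at 74452607 to 74454859 were called in both A549/DDP libraries and in neither A549 library. The last of these ends 146 bases before the gene end. Each of the 3 AREG regions was thus called in both A549/DDP libraries, where its RNA was 7.03-fold lower.

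The called EREG peaks of the A549 libraries lay nearer the gene start than those of A549/DDP replicate 1. Both A549 libraries held 1 peak that starts 48 bases after the gene start (74365193 to 74379513, in blocks on either side of an intron, p-values 0.00011 and 4.1e-05), and neither A549/DDP library did. A549/DDP replicate 1 held 4 peaks in the last part of the gene, from 74385222 to 74388254, each with a p-value of 3.3e-08, at a CPM of EREG that was a small part of that in A549. A549/DDP replicate 2, where EREG was lowest at 6.65 CPM, held none.

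**Figure D5:**
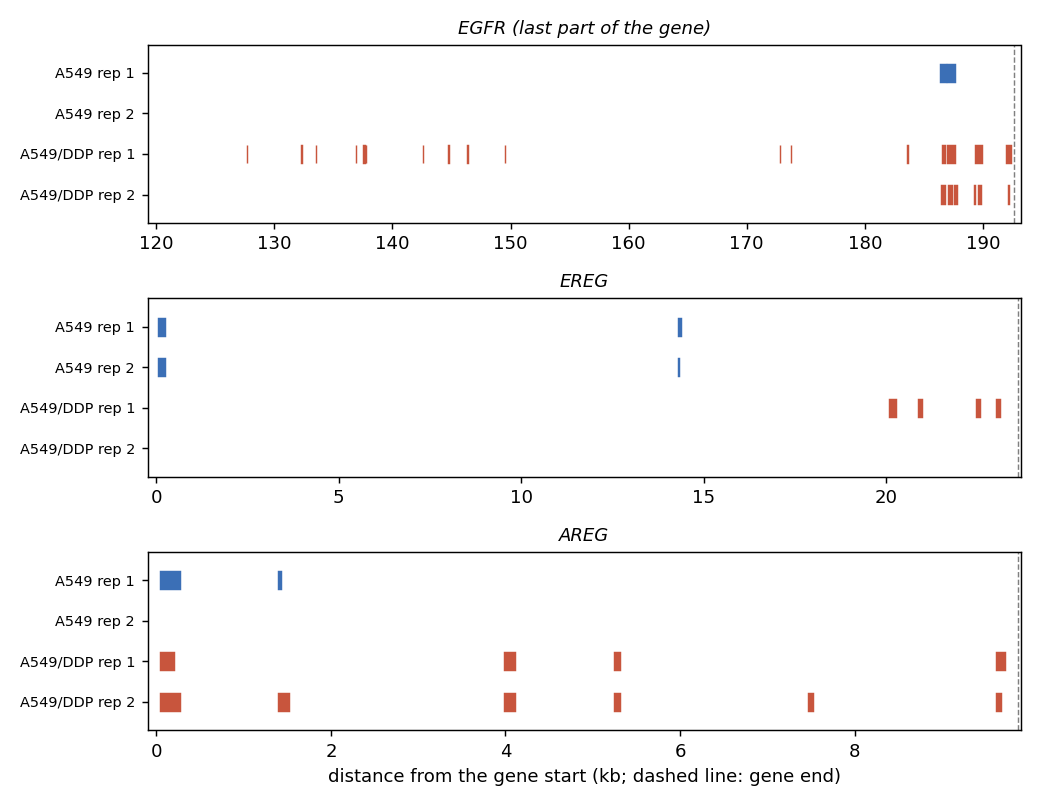
Exon blocks of called m6A peaks on EGFR (its last part, since no peak lay before it), EREG and AREG in each m6A-seq library, against the distance from the gene start in kb, with narrow blocks drawn at a least visible width and a dashed line at the gene end. EGFR blocks cluster near the gene end in 3 libraries, and AREG has a block at its start in 3 libraries. The EREG blocks of A549 lie nearer the gene start than those of A549/DDP replicate 1.

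NRG1 had 0 peaks in A549 replicate 1, 2 in A549 replicate 2, and 8 and 0 in the A549/DDP libraries. Both regions of A549 replicate 2, at 32548269 to 32548768 and at 32763768 to 32764516 of chromosome 8, were also called in A549/DDP replicate 1. For TGFA the peaks ran the other way. It had 3 peaks in A549 replicate 1 and 1 in A549 replicate 2, merged into 1 region on the minus strand of chromosome 2 (70450059 to 70453221, 844 bases in exon blocks), and 0 in either A549/DDP library. HBEGF had 2 peaks in A549 replicate 1 alone, 1 of them starting 21 bases after the gene start, with p-values of 2.4e-07 and 8.7e-07. The RNA of TGFA and HBEGF was at most 12.1 CPM in A549/DDP, and the part of low RNA in the absence of peaks was not tested.

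ERBB2 had 10 peaks, with p-values of 3.4e-07 or 1.1e-07, and ERBB3 had 6, with p-values from 0.00081 to 0.0065, all in A549/DDP replicate 1. Several peaks of each gene carried the same p-value, so the number of peaks is no count of separate support. The last ERBB2 peak (39730227 to 39730376) lay past the gene end in RefSeq. In the first A549 pair ERBB2 RNA was at 48.2 and 76.7 CPM and ERBB3 RNA at 3.04 and 7.93 CPM. The input RNA of A549/DDP replicate 2 was close to that of replicate 1 for both genes, at 87.0 and 114 CPM for ERBB2 and 96.8 and 114 CPM for ERBB3, while its list held no peak on either.

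Each of the 4 genes whose RNA fell had more called peaks in the 2 A549/DDP lists together than in the 2 A549 lists together, with 16 against 2 for EGFR, 6 against 1 for AREG, 4 against 2 for EREG and 8 against 2 for NRG1. Of all 1029 genes with lower RNA and a peak in at least 1 library, 44.4% had more peaks in A549/DDP. With A549/DDP replicate 2 alone set against the mean of the A549 lists, 2 of the 4 genes, EGFR and AREG, still had more peaks, beside 22.7% of the 1029 genes. The excess for EREG and NRG1 therefore came from A549/DDP replicate 1. Peak numbers also depend on how a stretch is split. The EGFR region from 55205946 to 55206843 held 1 peak in A549 replicate 1 and 2 in A549/DDP replicate 2. In called bases EGFR had 1198 and 0 in the A549 libraries and 2755 and 1449 in the A549/DDP libraries. AREG had 250 and 0 beside 453 and 651, EREG 249 and 200 beside 501 and 0, and NRG1 0 and 950 beside 1854 and 0.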

How the data were processed

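Input RNA and m6A-seq libraries of A549 and A549/DDP cells were grouped by the sample labels. The replicate numbers of the A549 m6A-seq labels are exchanged relative to the file names, and samples were taken as labelled. Each input library has a gene table from the authors with TPM, FPKM and expected counts. The deposited expected counts were not normalized, while the deposited TPM and FPKM account for length and depth. The tables also hold deposited transcript lengths, in bases. STAR, RSEM, bedtools and hg38 are named in the submitters' processing notes, and the peak caller is not given in the sources used here. For each m6A-seq library the authors deposited peaks with a score read here as a p-value, and whether it is raw or adjusted is not said. Separate peaks of a gene often carry the same score, and whether each peak was scored on its own is not said.

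After rounding, genes kept by filterByExpr entered the quasi-likelihood test of edgeR 4.0.16 (R 4.3.3) with TMM factors, and p-values were adjusted by Benjamini-Hochberg over 16406 genes. The fit used 4 inputs. The standard error was taken as |log2 fold change| over the root of the F statistic. The edgeR, DESeq2 and limma fits were run on simulated counts, drawn with the dispersions that edgeR estimated from these inputs. Such counts cannot show whether the p-values hold for these libraries. DESeq2 1.42.0, limma 3.58.1 with a trend on log2 TPM or FPKM (pseudocount 1, or 0.1 for TPM, mean of at least 1), other filters and scalings, a replicate block, the second pair of A549 inputs and leaving out each library were alternatives. For the peaks these were a p-value at or below 1e-05, a shared 50% of the shorter peak, a peak in either replicate, and each library left out. Peaks on a gene were merged where exon blocks shared 1 base on the same strand. Of 58037 identifiers, 56993 matched a symbol, and coordinates count from 1. Plots were drawn with matplotlib 3.10.9 in Python 3.11.15.

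All 10 genes were named, and from the other lists the up to 3 largest rises and falls among genes that passed, with every other ErbB ligand. GRB2, DUSP4 and IGF1R were named after their values were seen. The genes and lists were chosen with earlier results of these data known, and the promoter motifs, and the peak count with A549/DDP replicate 2 alone, after the data were seen. Intervals for a count of 0 cover counting error only. Depth of the m6A-seq libraries is unknown.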

Additional observations from a re-analysis of the deposited data

How the results depend on the processing

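The number of genes called over all genes, 2437 in edgeR, was 4234 in DESeq2, 4010 with every gene of at least 1 count, 1492 and 1177 in limma on log2(TPM + 1) and log2(TPM + 0.1), 3758 with the second pair of A549 inputs and 677 with both pairs, and it ran from 2052 to 3809 (the latter without A549 replicate 2) when a library was left out. A lone library left in a line was then assumed to vary like the others. With the second pair the median log2 fold change of all genes was 0.80 and 63.1% of calls were higher (46.1% in the main test), and without A549/DDP replicate 1 or 2 it was -0.20 and -0.11. The ERBB genes called, 5 in the main test, were 8 with every gene of at least 1 count, 3 with both pairs, and 6 to 7 when a library was left out. AREG, EREG and ERBB3 passed under all 14 alternatives, and EGFR and NRG1 under 13. None of the 9 genes tested changed direction where it had a value, which BTC had under 11 alternatives. With the replicate number as a block 7 of these genes and 3536 of all genes passed, HBEGF and TGFA being added, but the deviations of same-numbered libraries correlated by 0.021 and the labels give no reason for a pairing, so the numbers only name the libraries.

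The 45 regions on these genes became 27 with p-values at or below 1e-05 and 14 to 47 when a library was left out. The 4 regions called in A549/DDP alone became 2 at the strict p-value, 36 counting a peak in either replicate, and 4 to 36 when a library was left out. The 2 called in A549 alone became 0, 4 and 2 to 6, and the 0 called in every library of both lines became 5 when either replicate was enough and 0 to 3 when a library was left out. The genes with a peak in both A549 libraries, 2, became 0 at the strict p-value and 6 with either replicate, and 2 to 5 with a library left out. Those with a peak in both A549/DDP libraries, 2, became 1 and 6, and 2 to 6. A shared 50% of the shorter peak changed none of these counts.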

Other observations

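Mitochondrial genes took 75.2% and 73.9% of the 855033 and 982029 expected counts in the second pair of A549 inputs. As CPM over the counts outside mitochondrial genes, AREG was at 250 and 359, above the 136 and 126 of the first A549 pair, and EREG was at 194 and 277, beside 380 and 297. EGFR was at 420 and 246, below the 1616 and 1341 of the first pair, and NRG1 at 123 and 109, beside 489 and 529. AREG, and not NRG1, was then the ligand with the highest TPM, at 72.8% and 74.4% of the summed ligand TPM. EGFR held 97.8% and 91.9% of the receptor TPM, ERBB3 had 1 and 0 counts, and ERBB2 had 0 and 5. EGFR and NRG1 were thus lower and AREG higher in both second libraries than in either first one. ERBB2 was lower as well (0 and 19.5 against 44.96 and 78.7 CPM on this scale). The part of depth, mitochondrial share, type of library or culture in these differences was not tested.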
